A study of Xenopus laevis with 31 samples.

Results

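Endoderm formation in Xenopus laevis gastrulae was disturbed either by blocking nodal signalling with Cerberus-Short or by depleting Sox17 with antisense morpholino oligonucleotides, and the outcomes were compared directly. The samples were chosen by the condition named for each, and they were 6 of the 31 arrays of the series, 3 labelled Cerberus-Short and 3 labelled Sox17-MO. All were whole embryos at stage 11, the mid gastrula. Cerberus-Short embryos received 1 ng of synthetic Cerberus-short RNA. Sox17-MO embryos received morpholinos to Sox17a1, Sox17a2 and Sox17b together, 20 ng of each. Both were injected into the vegetal side at the 2-cell stage. A sample pooled about 20 sibling embryos of a single mating. It is not stated which pools came from the same mating. The p-values here cover only the variation among pooled samples within groups, with the spread taken from all 31 arrays. The 9 arrays of whole stage 11 embryos that are the study's controls are used here as a reference level. No injection is recorded for the controls, and 1 of them is titled as uninjected. A control RNA or a control morpholino is named for no sample, so what injecting RNA or oligonucleotide does by itself and what nodal block or Sox17 loss does cannot be told apart. The array gave 1 linear intensity per probe set, a group of short probes for a transcript, and the tables used pair no probe set with a gene. Probe sets are therefore named by their array identifiers, the levels of Sox17 and Cerberus transcripts were not analysed here, and tissue is read from the explants of the same series. These are stage 11 samples of about 50 pooled explants each, 2 vegetal, 2 equatorial and 3 animal cap. The caps were cut at stage 9. Also used were 3 samples of eggs, 4 of whole control embryos at stage 18 and 2 of whole stage 11 embryos labelled Mixer-MO. Each of these pooled about 20 eggs or embryos, and the Mixer-MO embryos were injected at the 2-cell stage.

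Nodal ligands are secreted TGF-beta family signals made in the vegetal cells of the blastula. Through activin-type receptors and Smad2 they induce mesoderm and endoderm, and high signal favours endoderm. Cerberus-Short is a truncated, secreted form of the protein Cerberus that binds nodal ligands outside the cell and leaves the other targets of Cerberus free. Sox17 genes code for HMG-box transcription factors that are switched on in the endoderm downstream of maternal VegT and nodal signals and that maintain the endodermal state. Morpholinos block translation or splicing of a chosen mRNA, so an mRNA level need not fall in its own knockdown. Cerberus-Short thus acts on a signal received by mesoderm and endoderm, and the Sox17 morpholinos on a factor within the endoderm, and the direct comparison asks at which transcripts the outcomes differ.

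Of 15473 probe sets tested, 76 (0.491%) differed between the groups at an adjusted p under 0.05 in limma with Benjamini-Hochberg adjustment. Of these, 37 (0.239%) were higher and 39 (0.252%) lower in Cerberus-Short, and 71 of the 76 differed at least 2-fold. Endoderm-enriched probe sets were at least 2-fold higher in vegetal explants than in animal caps at an adjusted p under 0.05. The means compared for this used none of the 6 arrays, but the spread in the test came from all arrays, the 6 included. Endoderm-enriched probe sets made up 24 of the 39 lower probe sets and 4 of the 37 higher ones, where they are 6.46% of all probe sets tested. Among the called probe sets the median difference was -2.05 on the log2 scale on the lower side and 1.28 on the higher side. The size needed for a call grows with the SE of a probe set, so nothing further is read from these medians. In 75 of the 76 the 3 Cerberus-Short and 3 Sox17-MO values did not overlap, as they did not in 1364 of all probe sets tested (8.82%), higher in Cerberus-Short in 711 (4.60%) and lower in 653 (4.22%). The exception was Xl.4515.1.S2_a_at, singled out for this. It read 132, 355 and 53.3 in Cerberus-Short replicates 1 to 3 and 303, 1439 and 1352 in Sox17-MO replicates 1 to 3. With 3 against 3 arrays no exact permutation test of a single probe set can go below p = 0.1, so the calls rest on a spread shared with the other 25 arrays. Values without overlap are what gives that p. With no difference a share of about 0.1 is therefore expected, and 8.82% does not exceed it. Fitted on the 6 arrays alone, limma called 0 probe sets, with 801 at an unadjusted p under 0.05, against 1045 at that level in the fit over all arrays. A share of about 0.05 of the 15473 is expected at that level with no difference, and 801 is near it. The call also depended on single arrays. It numbered 12 without Sox17-MO replicate 3, 34 without Sox17-MO replicate 2, 38 without Cerberus-Short replicate 2 and 48 without Cerberus-Short replicate 1. All 76 differences kept their sign in each of these fits. For the 75 without overlap, leaving out 1 array cannot turn the sign, so this is no test.

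The 6 arrays had median intensities from 66.9 to 76.9. Array titles carry a letter that recurs across groups, D, f and H for Cerberus-Short replicates 1 to 3 and C, f and G for Sox17-MO replicates 1 to 3. Each of the 6 arrays deviated from its group mean most like the control array of its own letter, at rank 1 of 9 controls in 6 of 6 cases, with correlations across probe sets from 0.520 to 0.851. What the letter stands for is not given in the sources used here. The SD over probe sets of the log2 difference between arrays was 0.50 for the Cerberus-Short and Sox17-MO arrays that share the letter f, lower than for any pair within either group (0.54 to 0.94). Only replicate 2 of both groups shares a letter, so for the other arrays letter and group cannot be told apart without the controls. With the letter as a fixed block 63 probe sets were called, 33 of them among the 76, and with it as a random block 167, which held all 76. Cerberus-Short replicate 2 also stood apart in a measure of RNA integrity or labelling, the log2 ratio of the 3' over the 5' beta-actin control probe sets. That ratio was 0.43 in this array and -2.68 and -2.92 in the other Cerberus-Short arrays, -3.38 to -2.27 in Sox17-MO and -3.71 to 0.90 in the controls. The same ratio of the GAPDH control probe sets was 1.94, 3.15 and 2.31 in Cerberus-Short, 0.92, 1.80 and 1.97 in Sox17-MO and 1.65 to 3.90 in the controls. The part of these ratios in the results was not tested.

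The calls were described by which group lay farther from the control mean, a grouping made after the values were seen. Cerberus-Short lay farther out in 23 of the 39 lower probe sets and Sox17-MO in 16, and among the 37 higher probe sets Cerberus-Short lay farther out in 2 and Sox17-MO in 35. As read from group medians, the direct comparison thus held mainly 2 kinds of transcripts. Some lay below controls with Cerberus-Short and near controls with the Sox17 morpholinos. Others were displaced in either direction with the Sox17 morpholinos and near controls with Cerberus-Short. Single members of the first kind also lay above controls with the Sox17 morpholinos, by up to 1.02 on the log2 scale. Of the 23, 22 were endoderm-enriched. Of the 16 and the 35, 2 and 3 were, where 6.46% of all probe sets tested are.

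**Figure D1:**
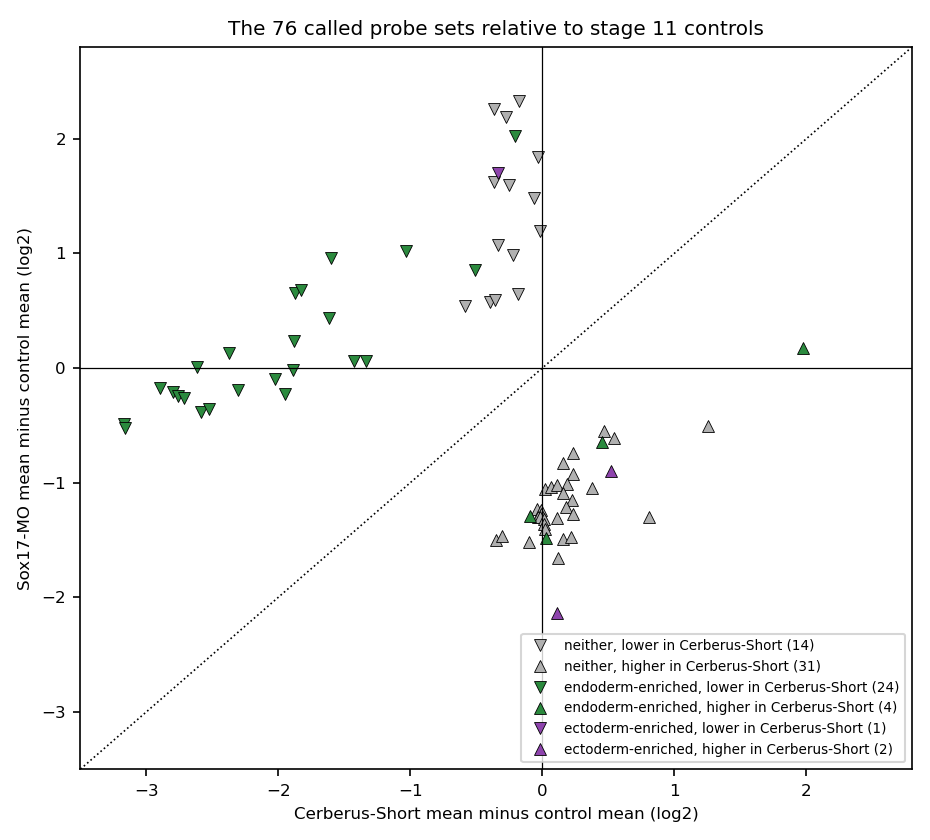
Each point is 1 of the 76 called probe sets, with the Cerberus-Short mean minus the control mean on the x axis and the Sox17-MO mean minus the control mean on the y axis, both on the log2 scale. Both axes use the same 9 controls. Downward triangles are lower and upward triangles higher in Cerberus-Short, and colour gives enrichment in vegetal explants (green), in animal caps (purple) or neither (grey). Green points stretch to the left, down to -3.17, at Sox17-MO values from -0.52 to 1.02, while grey points gather near 0 on the x axis.

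The 23 probe sets lower in Cerberus-Short and farther from controls in that group had a median difference from Sox17-MO of -2.21 on the log2 scale, from -2.72 to -1.13. Their median difference from controls was -2.03 with Cerberus-Short and -0.02, from -0.52 to 1.02, with the Sox17 morpholinos. In the fit against controls 21 of the 23 were also called lower with Cerberus-Short, a comparison in which 0.317% of all probe sets were called lower, and 0 of the 23 were called in Sox17-MO. In 21 of the 23 all 3 Cerberus-Short values lay below all 9 controls, as in 0.491% of all probe sets. Both counts use the values that put the 23 together, so nothing further is read from them. In whole embryos, fewer endodermal cells and less RNA per cell cannot be told apart. The vegetal minus animal cap difference of the 23 had a median of 4.97 on the log2 scale, 15 of them were also at least 2-fold higher in vegetal than in equatorial explants (2.41% of all probe sets), and 12 at least 2-fold higher in equatorial explants than in caps (0.711% of all). In eggs 21 were lower than at stage 11, and 0 were higher. Over all probe sets 10.7% were lower in the egg and 11.4% higher, and over the 999 endoderm-enriched ones 207 and 198. The egg call and the grouping of the 23 use the same controls, so these egg counts are not independent of the grouping. The exceptions among the 23, chosen after their values were seen, were Xl.3789.1.S1_at and Xl.15472.1.A1_at, which were called neither in the egg nor against controls. Against controls Xl.3789.1.S1_at stood at -1.03 on the log2 scale with Cerberus-Short and at 1.02 with the Sox17 morpholinos. Xl.15472.1.A1_at was also the 1 probe set of the 23 without endoderm enrichment. It read 207, 161 and 147 in Cerberus-Short, 448, 301 and 380.5 in Sox17-MO and 182 to 372, with a median of 268, in controls, so the injected groups lay on either side of the controls and the difference was the smallest of the 23, at -1.13 ± 0.22 (SE) on the log2 scale (limma adjusted p = 0.0136).

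Among them, Xl.579.1.S1_at had the largest difference of all 76. Its intensity was 111, 69.9 and 25.6 in Cerberus-Short replicates 1 to 3, 389, 335 and 439 in Sox17-MO replicates 1 to 3, and 325 to 676, with a median of 398, in the 9 controls. Every Cerberus-Short value lay below every control and every Sox17-MO value, and Sox17-MO lay within the control range. The log2 difference between the groups was -2.72 ± 0.40 (SE), which is 6.61-fold, with adjusted p = 0.00180 in limma. Xl.6024.1.S1_at read 24.9, 10.9 and 11.0 in Cerberus-Short, 122, 66.3 and 98.0 in Sox17-MO and 78.3 to 261, with a median of 128, in controls. Every Cerberus-Short value lay below every other value, and the log2 difference was -2.69 ± 0.41 (SE) (limma adjusted p = 0.00180). It was the 1 member of the 23 that was also called against controls in Mixer-MO, at -2.53 on the log2 scale (limma adjusted p = 0.00501), and it was higher at stage 18 than at stage 11, by 2.31. Mixer is a homeodomain factor of the endoderm, and the Mixer-MO samples, 2 in number, received a morpholino to it. Its dose is 40 ng in the study's protocol, while the title of Mixer-MO replicate 1 reads 32 ng.

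Xl.2554.1.A1_at and Xl.578.1.S1_at followed the same order of groups. Xl.2554.1.A1_at read 46.2, 30.9 and 13.1 in Cerberus-Short, 136, 141 and 216 in Sox17-MO and 121 to 264, with a median of 229, in controls. Its log2 difference was -2.59 ± 0.40 (SE) (limma adjusted p = 0.00180). Xl.578.1.S1_at read 56.6, 48.3 and 17.0 in Cerberus-Short, 242, 154 and 229.9 in Sox17-MO and 99.5 to 307, with a median of 204, in controls, with a log2 difference of -2.51 ± 0.41 (SE) (limma adjusted p = 0.00288). In both, Cerberus-Short replicate 3 was lowest and replicate 1 highest of the 3, and no Cerberus-Short value reached the controls.

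In Xl.1108.1.S1_at and Xl.183.1.S1_at a single array set much of the size. Xl.1108.1.S1_at read 131, 145 and 16.7 in Cerberus-Short, 438, 440.2 and 399.9 in Sox17-MO and 298 to 1030.0, with a median of 610.0, in controls. Xl.183.1.S1_at read 187, 173 and 17.1 in Cerberus-Short, 456, 583 and 488 in Sox17-MO and 423 to 568, with a median of 512, in controls. In each, Cerberus-Short replicate 3 was far below replicates 1 and 2, which themselves lay below every control and every Sox17-MO value. The log2 differences were -2.64 ± 0.57 (SE) for Xl.1108.1.S1_at (limma adjusted p = 0.0257) and -2.62 ± 0.50 (SE) for Xl.183.1.S1_at (limma adjusted p = 0.0123). Without Cerberus-Short replicate 3 they were -1.63 and -1.49, with adjusted p = 0.134 and 0.0104 in limma. Over all alternatives the adjusted p ran from 0.0109 to 0.764 for Xl.1108.1.S1_at and from 0.00181 to 0.823 for Xl.183.1.S1_at. Over the 23, replicate 3 was the lowest Cerberus-Short array in 19, replicate 2 in 3 and replicate 1 in 1. Of the 23, 14 were still called without that array, 8 without Sox17-MO replicate 3, 11 without Sox17-MO replicate 2 and 16 to 18 without any 1 of the other 3 arrays.

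Xl.44.1.S1_at and Xl.44.1.S1_s_at share a cluster number in their identifiers, and counts here are of probe sets, not of genes. Xl.44.1.S1_at read 235, 182 and 128 in Cerberus-Short, 1401, 711 and 1063 in Sox17-MO and 399 to 973, with a median of 670.5, in controls. Xl.44.1.S1_s_at read 303, 327 and 172, 1740.0, 1112 and 1626 and 602 to 1389, with a median of 904, in the same order. Both were below every control in Cerberus-Short, and 2 of 3 Sox17-MO values of each lay above every control. The log2 differences were -2.53 ± 0.40 (SE) (limma adjusted p = 0.00257) and -2.51 ± 0.47 (SE) (limma adjusted p = 0.0118). Xl.11957.1.S1_at went further in that direction, at 70.7, 127 and 44.1 in Cerberus-Short, 363, 494 and 457 in Sox17-MO and 158 to 319, with a median of 198, in controls. Its 3 Sox17-MO values lay above all 9 controls and its 3 Cerberus-Short values below them. The log2 difference of -2.56 ± 0.44 (SE) (limma adjusted p = 0.00608) was made up of -1.60 against controls in Cerberus-Short (adjusted p = 0.0448) and 0.96 in Sox17-MO, which did not pass (adjusted p = 0.327).

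The last named probe set of the 23, Xl.291.1.S1_at, read 224, 121 and 113 in Cerberus-Short, 1181, 768 and 628 in Sox17-MO and 299.7 to 1870.0, with a median of 1133, in controls. The Sox17-MO values lay within a wide range of controls and the Cerberus-Short values below it, the log2 difference was -2.51 ± 0.59 (SE), and the call was at the threshold (limma adjusted p = 0.0496). It was lost in 14 of 21 alternatives. The other 13 of the 23 had log2 differences from -2.45 to -1.13, with a median of -2.05. Just inside the threshold of the whole comparison lay also Xl.4515.1.S2_a_at at adjusted p = 0.0487 and Xl.13643.1.A1_at at 0.0486, and just outside it Xl.22251.1.A1_at, Xl.2391.1.S1_at and Xl.24082.1.A1_x_at at 0.0516, each in limma.

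**Figure D2:**
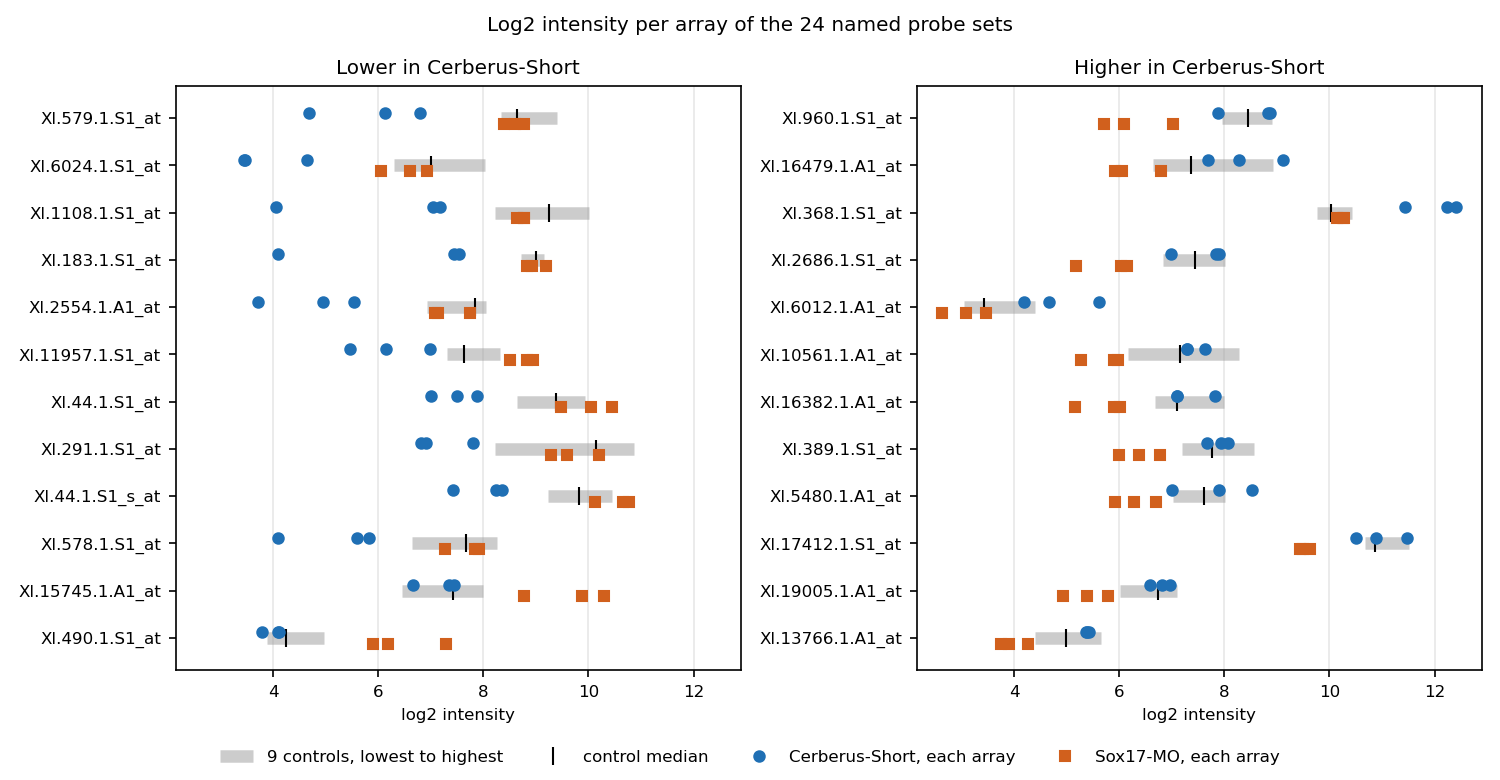
Log2 intensity (x axis) of the 24 named probe sets (y axis), with circles for the 3 Cerberus-Short arrays, squares for the 3 Sox17-MO arrays, grey bars from the lowest to the highest of the 9 controls and a tick at the control median. In the upper 10 probe sets of the left panel the Cerberus-Short values lie below the control bar, while in Xl.15745.1.A1_at and Xl.490.1.S1_at the Sox17-MO values lie above it. In most probe sets of the right panel the Sox17-MO values lie below the bar, and in Xl.368.1.S1_at the Cerberus-Short values lie above it.

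Most endoderm-enriched probe sets were not called, which does not show that they did not differ. Of the 999 endoderm-enriched probe sets 24 (2.40%) were lower and 4 (0.400%) higher in Cerberus-Short. The median difference over the set was -0.05 on the log2 scale, beside -0.02 over all probe sets. Its array medians against the control mean overlapped, at -0.31, -0.21 and 0.11 in Cerberus-Short replicates 1 to 3 and -0.07, -0.23 and -0.13 in Sox17-MO. Of the 24 lower ones, 21 were low in the egg. Of 207 endoderm-enriched probe sets that were lower in the egg than at stage 11, 21 (10.1%) were called lower and 2 (0.966%) higher, with a median difference of -0.32 and the lower mean in Cerberus-Short in 70.5%. Of 594 with no call in the egg 2 (0.337%) were lower and 1 (0.168%) higher, with a median of -0.04. Of 198 that were higher in the egg, 1 was lower and 1 higher (0.505% each), with a median of 0.20. Against the control mean the medians of the 198 were -0.32, -0.30 and 0.72 in Cerberus-Short replicates 1 to 3. In Sox17-MO replicates 1 to 3 they were 0.04, -0.32 and -0.16. Only Cerberus-Short replicate 3 lay above all Sox17-MO arrays, so no direction is given for the 198. Non-overlapping values with the lower level in Cerberus-Short were seen in 53 of the 207 (25.6%) and in 4.22% of all probe sets.

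The median of the 207 relative to the control mean was -0.57, -0.53 and -1.35 in Cerberus-Short replicates 1 to 3 and -0.46, -0.31 and -0.37 in Sox17-MO replicates 1 to 3, on the log2 scale. All 6 medians were below 0, and the groups did not overlap. The 207 were chosen in part for a high level in the same controls, which favours medians below 0 in advance. Their position against 0 is therefore not read as a fall, and only the injected groups are compared. Against the control of its own title letter the medians were -0.35, -0.50 and -1.06 with Cerberus-Short and -0.27, -0.36 and -0.51 with the Sox17 morpholinos. On that reference the groups overlapped, and only Cerberus-Short replicate 3 lay below all Sox17-MO arrays. The same array had a low level of all 1648 probe sets that are lower in the egg, at a median of -0.40 against the control mean, and a high level of the 1764 that are higher in the egg, at 0.53, where the other 5 arrays ran from -0.34 to 0.27 and from -0.39 to 0.14. The part of this shift in the difference over the set was not tested. On the letter reference 20 of the 22 endoderm-enriched probe sets of the group of 23 had non-overlapping values, as had 17.1% of all probe sets. The 22 were chosen for differing between these arrays, so nothing about the whole set is read from this count.

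**Figure D3:**
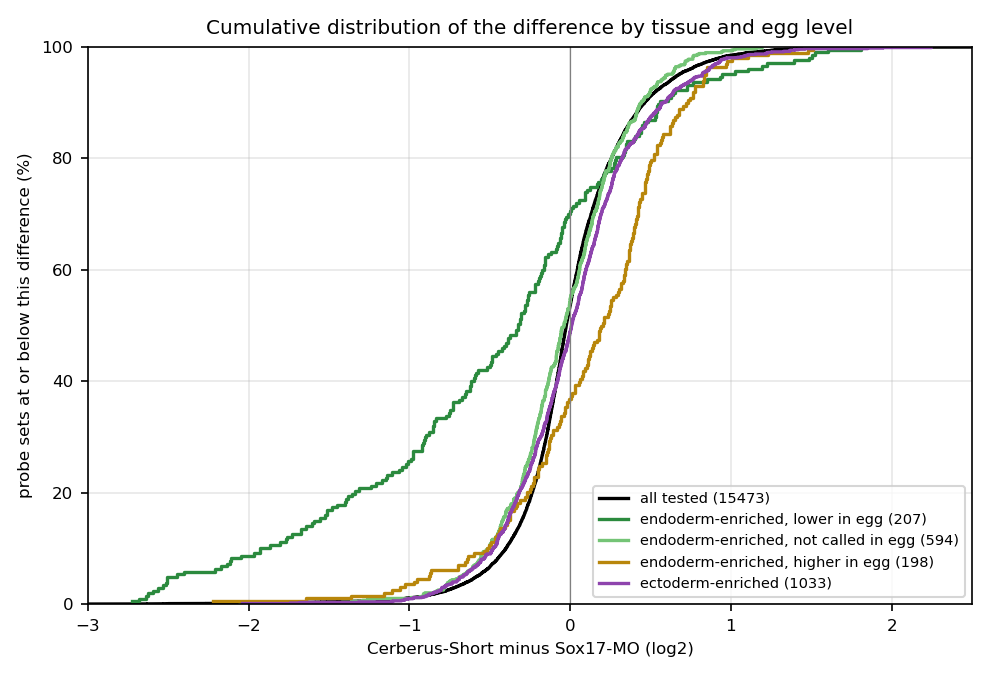
Cumulative share of probe sets (y axis, %) at or below a given log2 difference of Cerberus-Short minus Sox17-MO (x axis). Lines stand for all 15473 probe sets, for the endoderm-enriched ones by their level in the egg, and for the 1033 ectoderm-enriched ones. The line of the 207 endoderm-enriched probe sets that are lower in the egg crosses 50% at -0.32 and 25% at -1.01, to the left of the line of all probe sets, which crosses at -0.02 and -0.19. The line of the 198 that are higher in the egg crosses 50% at 0.20, in a set where only Cerberus-Short replicate 3 lay above all Sox17-MO arrays.

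By position in the embryo, of 326 endoderm-enriched probe sets that were also at least 2-fold higher in vegetal than equatorial explants, 16 (4.91%) were called lower in Cerberus-Short, with a set median of -0.11 on the log2 scale. Of 88 that were also at least 2-fold higher in equatorial explants than in caps, 12 (13.6%) were called lower, with a set median of -0.49. In both sets the array medians against the control mean overlapped between the groups. For the 88 they were -0.52, -0.85 and -1.58 in Cerberus-Short replicates 1 to 3 and -0.59, -0.38 and -0.35 in Sox17-MO. For the 326 they were -0.30, -0.25 and -0.12 against -0.05, -0.19 and -0.08. Against the control of its own letter only Cerberus-Short replicate 3 (-1.67) lay below all Sox17-MO arrays for the 88. Of the 1033 ectoderm-enriched probe sets, higher in animal caps than in vegetal explants (6.68% of all), 2 (0.194%) were higher and 1 (0.0968%) lower in Cerberus-Short. Their median was 0.01, and its sign turned under 6 other settings and without Cerberus-Short replicate 1 (-0.12) or Sox17-MO replicate 1 (-0.05), so no direction is given for the set. The count of 2 became 5 with the replicate number as a block.

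The last 2 named probe sets lower in Cerberus-Short differed because the Sox17-MO level was above controls. Xl.15745.1.A1_at read 175, 101 and 164 in Cerberus-Short, 945, 439.7 and 1264 in Sox17-MO and 87.3 to 254, with a median of 173, in controls. Xl.490.1.S1_at read 17.4, 17.1 and 13.8 in Cerberus-Short, 73.1, 60.0 and 156 in Sox17-MO and 14.8 to 31.3, with a median of 19.0, in controls. In both, every Sox17-MO value lay above every control, and in Xl.15745.1.A1_at every Cerberus-Short value lay within the control range. The log2 differences between the injected groups were -2.50 ± 0.47 (SE) (limma adjusted p = 0.0114) and -2.46 ± 0.43 (SE) (limma adjusted p = 0.00700). Against controls Sox17-MO rose by 2.32 and 2.19 on the log2 scale (limma adjusted p = 0.00188 and 0.00167), and Cerberus-Short stood at -0.18 and -0.27. Neither was enriched in vegetal explants or in caps, with vegetal minus cap differences of -0.36 and 0.55. Sox17-MO replicate 3 was the highest array in each. Both lost their call without it, Xl.15745.1.A1_at also without Cerberus-Short replicate 2.

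They belonged to the 16 probe sets lower in Cerberus-Short in which Sox17-MO lay farther from controls, and above them. The median of these against controls was 1.54 on the log2 scale in Sox17-MO, from 0.58 to 2.32, and -0.26 in Cerberus-Short. In the fit against controls 13 of 16 were called higher with the Sox17 morpholinos, where 0.259% of all probe sets were, and 0 were called with Cerberus-Short. In 11 of 16 all 3 Sox17-MO values lay above all 9 controls, as in 0.944% of all probe sets. The same values put the 16 together, so these counts describe the group and are no test of it. By tissue 13 of the 16 were enriched in neither explant, 2 in vegetal explants and 1 in caps. Over all 15473 probe sets 13441 are in neither, so the split is not read as a trait of the 16. In the egg 8 of 16 were higher than at stage 11 and 1 was lower, where 11.4% of all probe sets are higher and 10.7% lower. The median egg minus stage 11 difference of the 16 was 0.50, against -3.96 in the 23 described above. These egg values use the same controls as the grouping and are not independent of it. The endoderm-enriched members, named for their tissue after their values were seen, were Xl.5712.1.S1_at and Xl.9194.1.A1_at. Xl.5712.1.S1_at read 129, 94.7 and 153 in Cerberus-Short, 497, 621 and 617 in Sox17-MO and 77.1 to 201, with a median of 149.5, in controls. Its Sox17-MO values lay above every control and its Cerberus-Short values within the control range, with a log2 difference of -2.22 ± 0.33 (SE) (limma adjusted p = 0.00180). Unlike the endoderm-enriched members of the 23 it was higher in the egg than at stage 11, by 2.34. Xl.9194.1.A1_at was dim, at 20.7, 16.2 and 14.8 in Cerberus-Short, 39.3, 44.8 and 47.7 in Sox17-MO and 18.4 to 39.1, with a median of 23.9, in controls. Its Sox17-MO values lay just above every control and 2 of its Cerberus-Short values below every control. Outside the named pair, the other 14 of the 16 had log2 differences from -2.63 to -0.83, with a median of -1.48. The Sox17-MO arrays read, as medians of the 16 against the control of their own letter, 0.97, 1.45 and 1.63 in replicates 1 to 3, and the Cerberus-Short arrays -0.11, -0.01 and -0.15. On that reference the values of all 16 did not overlap, those of Xl.4515.1.S2_a_at included, whose intensities do. The same holds for 17.1% of all probe sets, and the 16 were chosen for differing between these arrays. Of the 16, 1 was still called without Sox17-MO replicate 3 and 4 without Cerberus-Short replicate 2.

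On the other side, in 35 of the 37 probe sets higher in Cerberus-Short, Sox17-MO lay farther from controls, and below them. The median of the 35 against controls was -1.27 on the log2 scale in Sox17-MO, from -2.13 to -0.55, and 0.11 in Cerberus-Short. In the fit against controls 30 of the 35 were called lower with the Sox17 morpholinos, where 0.685% of all probe sets were, and 0 were called with Cerberus-Short. In 32 of 35 all 3 Sox17-MO values lay below all 9 controls, as in 2.00% of all probe sets. These counts too use the values that put the 35 together. Endoderm enrichment was seen in 3, ectoderm enrichment in 2 and neither in 30. Neither means a vegetal against cap difference below 2-fold or not past the test. Over all 15473 probe sets 6.46% are endoderm-enriched, 6.68% ectoderm-enriched and 13441 neither. The split of the 35 is near these shares and is not read as a trait of the group. Their median vegetal minus cap difference was 0.18 on the log2 scale. Of the 35, 7 were lower in the egg than at stage 11 and 5 higher, 8 were higher at stage 18 than at stage 11 and 4 lower, where the shares over all probe sets are 10.7%, 11.4%, 12.3% and 14.3%. The egg and stage 18 calls use the same controls as the grouping and are not independent of it.

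Xl.960.1.S1_at led this group and had the largest difference of the higher side. It read 453, 468 and 236 in Cerberus-Short replicates 1 to 3, 130.0, 68.2 and 52.6 in Sox17-MO replicates 1 to 3 and 248 to 482, with a median of 349, in controls. Sox17-MO lay below every control, and Cerberus-Short within or just below the control range. The log2 difference was 2.25 ± 0.32 (SE), which is 4.75-fold, with limma adjusted p = 0.00180. Sox17-MO fell by 2.13 on the log2 scale against controls (limma adjusted p = 7.67e-05). This probe set was ectoderm-enriched, at -1.48 for vegetal minus cap, and higher at stage 18 by 1.46. It read 118 and 159 in the 2 Mixer-MO arrays, below every control, without passing the test there (limma adjusted p = 0.161).

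Xl.17412.1.S1_at read 1881, 2836 and 1461 in Cerberus-Short, 693, 797 and 722 in Sox17-MO and 1634 to 2940.0, with a median of 1879, in controls. The 3 Sox17-MO values lay close together and well below every control, and 2 of 3 Cerberus-Short values lay within the control range. The log2 difference was 1.43 ± 0.23 (SE) (limma adjusted p = 0.00257), and it passed in all alternatives other than the fit on the 6 arrays alone. Xl.2686.1.S1_at read 229, 238 and 126 in Cerberus-Short, 71.2, 65.2 and 36.4 in Sox17-MO and 115 to 258, with a median of 173, in controls. Its log2 difference was 1.78 ± 0.32 (SE) (limma adjusted p = 0.00806), with all Cerberus-Short values within the control range and all Sox17-MO values below it.

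Xl.16382.1.A1_at read 137, 226 and 136 in Cerberus-Short, 59.4, 64.4 and 35.8 in Sox17-MO and 103 to 255, with a median of 138, in controls. Xl.19005.1.A1_at read 96.7, 113 and 125 in Cerberus-Short, 55.1, 41.9 and 30.7 in Sox17-MO and 64.4 to 138, with a median of 106, in controls. Both had all Cerberus-Short values within the control range and all Sox17-MO values below it. The log2 differences were 1.65 ± 0.31 (SE) (limma adjusted p = 0.0109) and 1.42 ± 0.29 (SE) (limma adjusted p = 0.0192). Xl.389.1.S1_at, 1 of the 3 endoderm-enriched members, read 244, 205 and 270.1 in Cerberus-Short, 64.2, 109.9 and 82.7 in Sox17-MO and 147 to 378, with a median of 218, in controls. It showed the same order, with a log2 difference of 1.51 ± 0.33 (SE) (limma adjusted p = 0.0257) and a vegetal minus cap difference of 1.12. Its call was lost in 9 of 21 alternatives, among them the omission of any of the 6 arrays other than Sox17-MO replicate 2. The other 2, Xl.12111.1.S1_at and Xl.1026.1.S1_at, were named after their values were seen. None of the 3 passed for vegetal over equatorial explants. The mean of Xl.12111.1.S1_at was highest in equatorial explants, at 2.13 on the log2 scale for equatorial minus cap and -0.41 for vegetal minus equatorial. Xl.12111.1.S1_at read 361, 317 and 499 in Cerberus-Short, 181, 148 and 214 in Sox17-MO and 220.5 to 404, with a median of 258, in controls. Xl.1026.1.S1_at read 301, 334 and 206 in Cerberus-Short, 123, 100.4 and 140.5 in Sox17-MO and 255 to 387, with a median of 284, in controls. In both, Sox17-MO lay below every control, and 1 Cerberus-Short value lay outside the control range, above it in the first and below it in the second. The 3 had vegetal minus cap differences from 1.12 to 1.71, against a median of 5.08 in the 22 endoderm-enriched members of the group low with Cerberus-Short.

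The remaining 4 named probe sets of the group follow. Xl.16479.1.A1_at read 552, 207 and 311 in Cerberus-Short, 111, 66.0 and 60.6 in Sox17-MO and 100.2 to 484, with a median of 164, in controls. Cerberus-Short replicate 1 lay above every control and Sox17-MO replicate 1 among them, so both groups contributed to the log2 difference of 2.11 ± 0.41 (SE) (limma adjusted p = 0.0136). Xl.5480.1.A1_at read 239, 369 and 129 in Cerberus-Short, 78.3, 103 and 60.8 in Sox17-MO and 130.0 to 259, with a median of 197, in controls. Cerberus-Short spread over the whole control range and beyond, Sox17-MO lay below it, and the log2 difference was 1.51 ± 0.33 (SE) (limma adjusted p = 0.0310). Xl.10561.1.A1_at read 156, 156 and 199.7 in Cerberus-Short, 62.6, 59.6 and 38.6 in Sox17-MO and 72.2 to 310.1, with a median of 143, in controls. Its log2 difference of 1.69 ± 0.39 (SE) had a limma adjusted p of 0.0439, and 0.0524 with the replicate number as a block, in a range over all alternatives from 0.0230 to 0.441. Xl.13766.1.A1_at was low in all arrays, at 42.1, 43.0 and 41.0 in Cerberus-Short, 13.4, 15.0 and 19.2 in Sox17-MO and 21.1 to 50.1, with a median of 31.7, in controls. The log2 difference was 1.42 ± 0.30 (SE) (limma adjusted p = 0.0244). Xl.10561.1.A1_at and Xl.13766.1.A1_at lost their call whenever any 1 of the 6 arrays was left out. The 25 of the 35 that are not among the named had log2 differences from 0.98 to 1.42, with a median of 1.19. Over the group of 35, 3 were still called without Sox17-MO replicate 3, 9 without Sox17-MO replicate 2, 11 without Cerberus-Short replicate 2 and 15 without Cerberus-Short replicate 1.

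Of the 37 higher probe sets, 2 had Cerberus-Short farther from controls, and above them. Xl.368.1.S1_at read 2775, 4812 and 5460.0 in Cerberus-Short replicates 1 to 3, 1218, 1132 and 1235 in Sox17-MO replicates 1 to 3 and 874 to 1377, with a median of 1050.0, in controls. All Cerberus-Short values lay above every control, and all Sox17-MO values lay within the control range. The log2 difference between the injected groups was 1.81 ± 0.35 (SE), with every pair of arrays differing in the same direction (limma adjusted p = 0.0136). It was endoderm-enriched, as were the 22 described above, but higher with Cerberus-Short. It was the most strongly vegetal of the 76, with a vegetal minus cap difference of 7.34 on the log2 scale, was -6.13 in the egg and -5.49 at stage 18 relative to stage 11, and rose with Cerberus-Short against controls by 1.98 (limma adjusted p = 4.20e-04). In the 2 Mixer-MO arrays it read 175 and 559, below every control, and fell by 1.76 on the log2 scale (limma adjusted p = 0.0459). Among all probe sets 2 were called higher with Cerberus-Short than in controls (0.0129%). The value 4812 of replicate 2 could be read on either of 2 scales as deposited and was assigned the higher from the other values of its probe set. With a wider margin for such assignments the probe set was left out. Against the control of the same title letter the 3 Cerberus-Short arrays stood at 1.64, 2.06 and 2.59 on the log2 scale and the 3 Sox17-MO arrays from -0.03 to 0.09. The call was lost without Cerberus-Short replicate 2 or 3 and without Sox17-MO replicate 2 or 3, and kept without the others.

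Xl.6012.1.A1_at was near the bottom of the intensity range. It read 25.3, 49.1 and 18.2 in Cerberus-Short, 8.49, 11.0 and 6.21 in Sox17-MO and 8.21 to 21.0, with a median of 10.8, in controls. In Cerberus-Short 2 of 3 values lay above every control and in Sox17-MO 1 value below every control. Against controls the mean stood at 1.25 on the log2 scale in Cerberus-Short and at -0.51 in Sox17-MO. The log2 difference was 1.76 ± 0.35 (SE) (limma adjusted p = 0.0146), and 0.88 when 16 intensity units were added to every value. Signal over background was not analysed here, and the fold is the linear ratio of dim values. It was not enriched in vegetal explants or caps and was higher at stage 18 by 2.62.

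Of the 24 named probe sets, 8 were called whichever of the 6 arrays was left out. They were Xl.579.1.S1_at, Xl.6024.1.S1_at, Xl.2554.1.A1_at, Xl.11957.1.S1_at, Xl.44.1.S1_at and Xl.578.1.S1_at on the lower side, all endoderm-enriched, and Xl.960.1.S1_at and Xl.17412.1.S1_at on the higher side. All 8 lost their call in the fit on the 6 arrays alone. Xl.579.1.S1_at, Xl.2554.1.A1_at and Xl.578.1.S1_at also lost it within title letters, and Xl.11957.1.S1_at with the letter as a fixed block. The other 16 all lost their call without Sox17-MO replicate 3. Without another array the named probe sets lost 6 (Cerberus-Short replicate 1), 10 (Cerberus-Short replicate 2), 7 (Cerberus-Short replicate 3), 6 (Sox17-MO replicate 1) and 8 (Sox17-MO replicate 2).

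**Figure D4:**
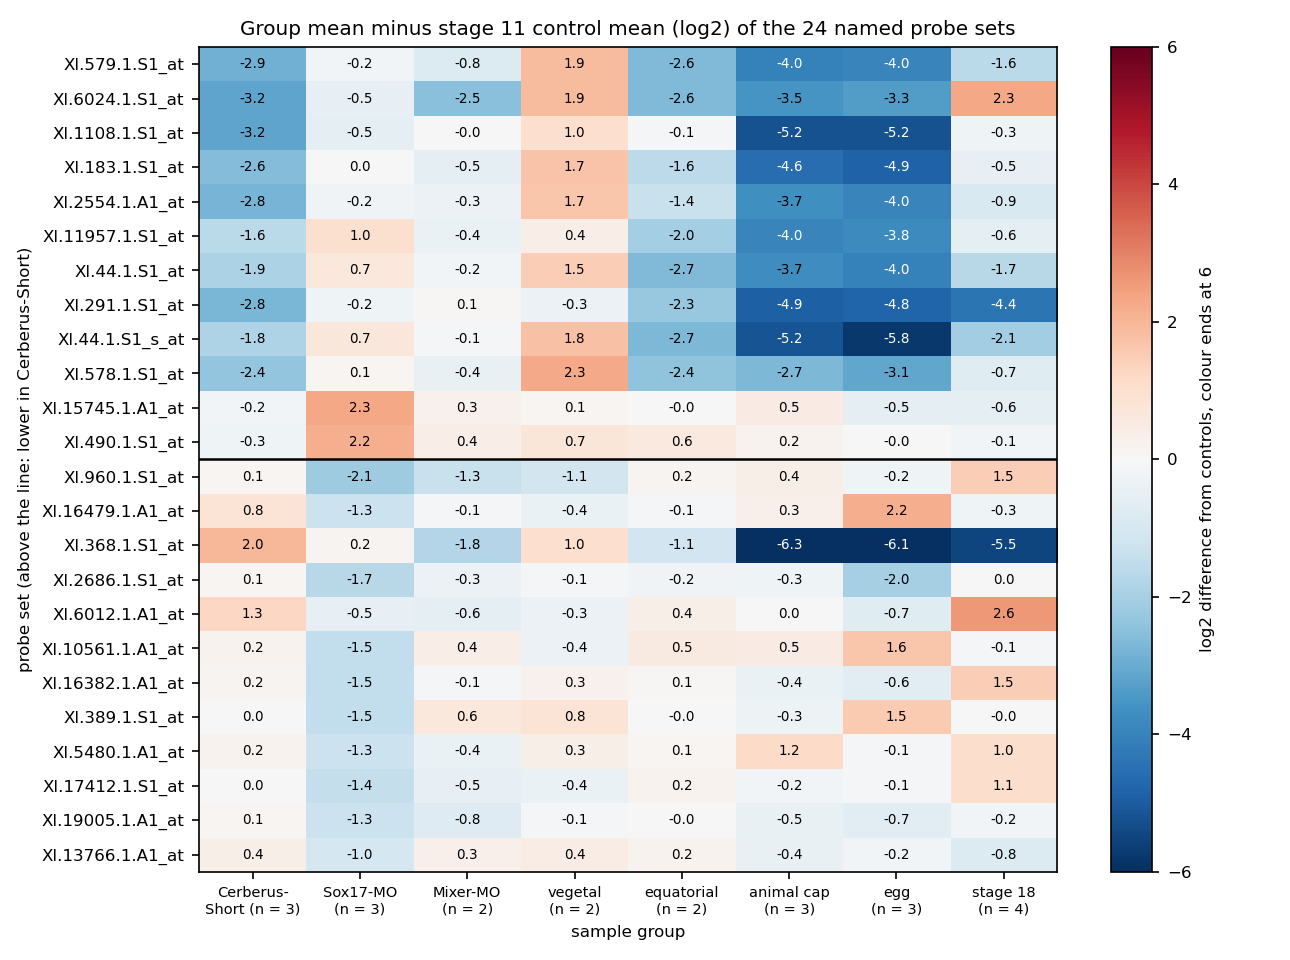
Mean log2 intensity of each sample group (x axis) minus the mean of the 9 stage 11 controls for the 24 named probe sets (y axis), printed in each cell and given by colour, blue for lower and red for higher. The upper 10 probe sets are low in Cerberus-Short, animal caps and eggs and run from -0.52 to 0.96 in Sox17-MO, and Xl.368.1.S1_at shares their low caps and eggs but is high in Cerberus-Short. Xl.15745.1.A1_at and Xl.490.1.S1_at are high in Sox17-MO. The 10 probe sets named with Sox17-MO farther from controls and below them are low in that group, and several of these differ as much or more in the egg column. Xl.6012.1.A1_at is high in Cerberus-Short and at stage 18.

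Against the control of their own title letter the called probe sets had the following levels. For the 23 probe sets the medians against the control of the same letter were -1.40, -1.63 and -2.67 in Cerberus-Short replicates 1 to 3 and -0.03, 0.32 and -0.14 in Sox17-MO, on the log2 scale. For the 35 probe sets they were 0.06, 0.03 and -0.06 in Cerberus-Short and -0.76, -1.36 and -1.23 in Sox17-MO. The injected arrays of replicate 2 share the letter f, and between them all 76 differences had the sign of the full comparison, with medians of -1.77 over the 39 lower and 1.47 over the 37 higher probe sets. Over all 6 arrays, 72 of the 76 had non-overlapping differences from the control of their own letter, 37 on the lower and 35 on the higher side, as had 17.1% of all probe sets. The 76 were chosen for differing between these arrays, so these counts and signs are a description. In a fit restricted to the 6 arrays and the 5 controls that share a letter with them, with the letter as a block, 121 probe sets were called, 34 of them among the 76. Of the 23, 16 and 35 probe sets, 7, 8 and 17 were called in that fit, and 10, 7 and 15 in the fit of all arrays with the letter as a fixed block.

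**Figure D5:**
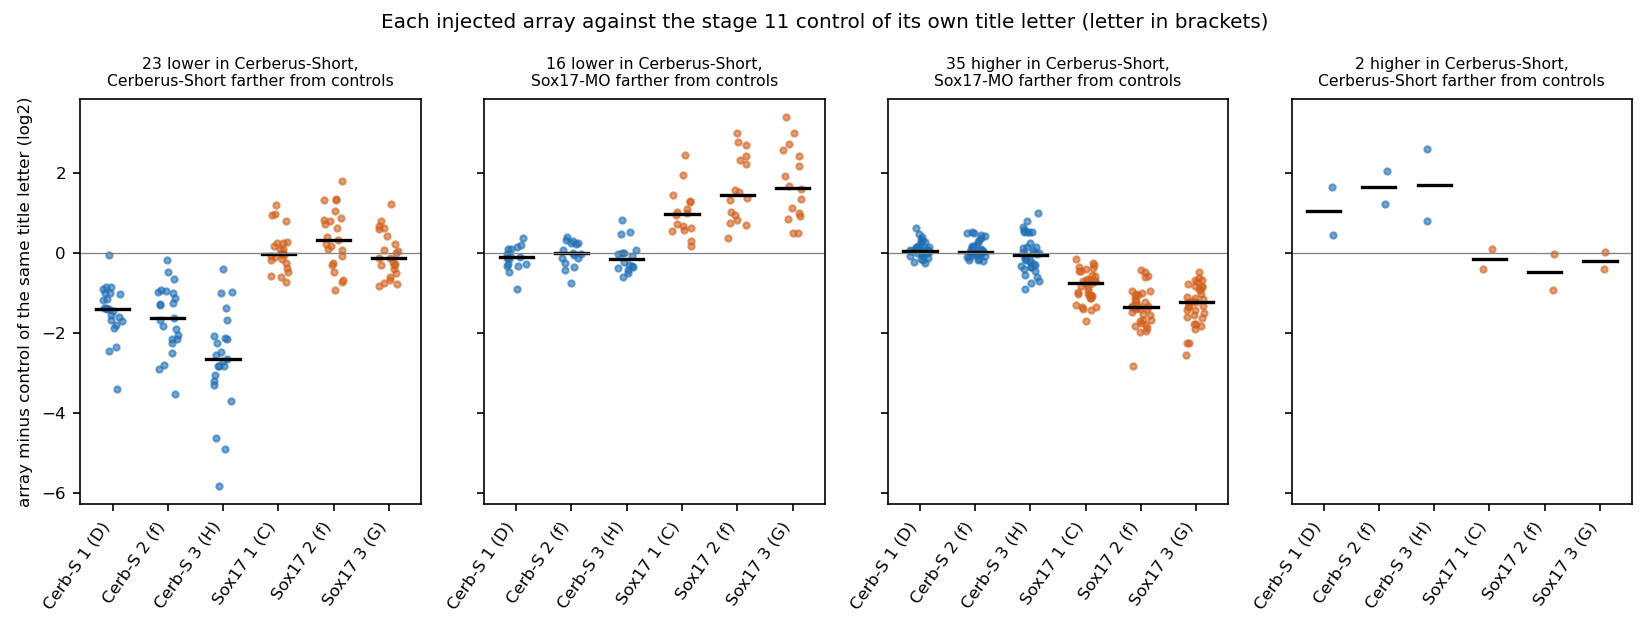
Log2 intensity of each injected array minus that of the stage 11 control with the same title letter (y axis), by array (x axis, letter in brackets), for the 4 groups of called probe sets. Points are probe sets and bars their medians. In the first panel the Cerberus-Short medians run from -2.67 to -1.40 and Sox17-MO lies near 0, and in the next 2 panels Cerberus-Short lies near 0 and Sox17-MO above or below it.

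The Mixer-MO embryos, 2 arrays against the same 9 controls, were read at the same probe sets. The median Mixer-MO minus control difference was -0.24 on the log2 scale over the 23 probe sets low with Cerberus-Short, 0.30 over the 16 high with the Sox17 morpholinos and 0.03 over the 35 low with them. Of the 76, 2 were called in Mixer-MO against controls, Xl.6024.1.S1_at and Xl.368.1.S1_at, both lower, where 0.0646% of all probe sets were called. All comparisons with controls share the 9 control arrays.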

How the data were processed

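Whole embryos, explants and eggs of Xenopus laevis were profiled on Affymetrix arrays, 1 array per sample. Each deposited value is a linear intensity, summarised by the authors with RMA, per the submitters' processing notes. In the deposited table an intensity of 1000 or more stands divided by 1000. Of 483941 values, 438140 (90.5%) could be read in only 1 way, and 45026 others were assigned by the rest of their probe set. In a test that hid 5101 settled values, 5074 were recovered, 25 were left undecided, and 144 of the 150 hidden values above that limit were recovered. The 120 array control probe sets and 18 probe sets with an undecided value were left out. A further 20 probe sets, in which no value could be read in only 1 way, were tested with their values as deposited.

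Log2 intensities of 15473 probe sets were analysed in limma (version 3.58.1, R version 4.3.3), with 1 mean for each of the 9 groups over 31 arrays. Tests were two-sided with Benjamini-Hochberg adjustment over all probe sets. Samples were grouped by the condition in the labels. Tissue and stage sets (adjusted p under 0.05 and at least 2-fold) compared means without the 6 injected arrays. Their spread came from the same fit over 31 arrays, the 6 included. Named probe sets were the 12 called in each direction with the largest difference and no overlap between groups. The members and lists were chosen with earlier results of these data known. No probe set was matched to a gene, so planned gene lists, tissue markers and the targeted genes were not analysed here. The number of arrays limits the precision.

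Deviations from the group mean correlated between same-numbered arrays at 0.327, 0.673 and 0.267 in replicates 1 to 3. Cerberus-Short replicate 3 and Sox17-MO replicate 1 came near the lowest of these, at 0.208. Such deviations cancel within a group, so the value of replicate 2 favours positive values among replicates 1 and 3. The values of replicates 1 and 3 are therefore no evidence of a pairing by number. The main fit used no pairing, and the replicate number was a block only in an alternative. Such a pairing comes from the data, since only replicate 2 shares a title letter between the groups. On simulated data with 200 of 15473 probe sets changed, the direct comparison called 28.0% of those changed 2-fold and 76.0% of those changed 3-fold, with 5 false calls. The simulated noise was independent between arrays, while real arrays of 1 title letter deviate together (correlation 0.409 in the random block). These rates therefore need not hold for the real arrays. Alternatives changed the scaling, filter, offset, restored values, arrays fitted, block, weights, variance model and threshold, or left out 1 array. The wider margin for restored values and the fit within title letters were chosen after seeing the data.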

Additional observations from a re-analysis of the deposited data

Results flagged for a closer look

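Of 24 named probe sets, 1 had a sample of the 9 controls far from the rest, and chance gives about 1 in 20. In Xl.17412.1.S1_at the highest control, replicate 9, lay at an intensity of 2940.0, and the next control at 2054. Its gap was 0.611 of the whole control range on the log2 scale. This control carries the title letter f, as do replicate 2 of Cerberus-Short, which was the highest Cerberus-Short array at 2836, and replicate 2 of Sox17-MO, the highest Sox17-MO array at 797.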

How the results depend on the processing

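All 76 differences kept their sign in every alternative that tested them. That is no test, since for the 75 with non-overlapping values leaving out 1 array cannot turn the sign. Several other alternatives change only the spread and leave the difference as it is. In place of the 76 calls (37 higher and 39 lower), the 6 arrays alone gave 0. That fit had 801 at an unadjusted p under 0.05, near the share expected with no difference. Stage 11 whole embryos alone gave 35 (15 and 20), 33 of them among the 76. The title letter as a random block gave 167 (101 and 66), array weights 154 (89 and 65), the fit within title letters 121 (74 higher) and an adjusted p under 0.10 127. Leaving out 1 array gave 12 to 88 calls, 3 to 56 of them higher and 9 to 32 lower. The replicate block gave 92 calls, 75 of them among the 76. The other alternatives gave 63 to 93. Lower endoderm-enriched calls (24) numbered 0 with the 6 arrays alone, 38 with the random letter block and 9 to 21 without 1 array. Higher ectoderm-enriched calls (2) numbered 5 with the low filter, 5 with the replicate block, 1 with the offset of 16, 0 with the 6 arrays alone, 1 with stage 11 alone, 4 with the letter fixed, 7 with it random, 7 with weights, 1 with an intensity trend, 7 within letters and 1 to 7 without 1 array. The median of the endoderm-enriched set (-0.05) ran from -0.12 to 0.0339 without 1 array, positive without Cerberus-Short replicate 1. That of the ectoderm-enriched set (0.01) was -0.0139 after quantile scaling, -0.0187 after median centring, -0.00483 with the low filter, -0.0338 with the letter fixed, -0.0201 with it random, -0.0632 within letters, and -0.12 to 0.12 without 1 array. The cause of these changes was not tested. The fit on the 6 arrays has 4 residual degrees of freedom. Dim probe sets lose size under the offset, and detection above background is not given here.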
